A study of Mus musculus with 15 samples.

Results

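The genes described here are the targets and handlers of the liver X receptors (LXR) and of cholesterol efflux in 21EM15 cells, an immortal mouse lens epithelial line. The set named 9 genes, Nr1h2, Nr1h3, Abca1, Abcg1, Apoe, Mylip, Lpcat3, Npc1 and Npc2, and a gene was kept where its symbol stood in both deposited tables. This left 7 of the 11041 genes that both tables hold, while Abcg1 and Nr1h3 were listed in neither. The genes were chosen by name, with the log2 fold changes of these same samples between 2D and 3D and between regions known, and selected on being listed in both tables, so the values and changes of the members are given as a description. Where a member is said to lie past or under the thresholds of the fit over all genes, this places it on the scale used for the other genes and is not a test of the member.

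The samples, all wild type (WT in the labels), fell into 4 groups and were profiled by 3′ end RNA sequencing. The 2D group held 4 samples, each a dish of adherent cells, and the 3D group held 4 samples, each a pool of spheroids grown in round-bottom wells with a non-adhesive Polyhema coating. The Internal group (4 samples) and the External group (3 samples) were regions cut from sections of pooled spheroids by laser capture microdissection, and a further external sample that the study set aside was not analysed here. The study removed it because it differed from the other 3 external samples in a principal component analysis of expression. The spread of External, and the p-values between regions, may therefore be too small. All samples came from the 1 line, no group carried a drug or an allele of its own, and RNA of the regions was extracted with another kit than RNA of the cultures. The sources do not say whether replicate dishes or pools were started separately, so the p-values measure the spread between these samples, which may be technical. The 2 tables were normalized separately, and levels were compared within a table only.

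The culture libraries held 7305053 to 9362587 reads in listed genes, and the region libraries 4044230 to 11702504. Of the fixed lens epithelium markers, 4 of 8 were listed in each table, namely Pax6, Six3, Mab21l1 and Cryab, while Foxe3, Pitx3, Cdh1 and Cryaa were not. Their summed level was 800.9 to 1119 CPM in 2D and 1335 to 1603 in 3D, and 723.1 to 871.6 in External and 974.2 to 1263 in Internal, so the sum moved with both comparisons. None of the 4 was called, and their log2 fold changes in 3D and Internal were 0.69 and 0.65 for Pax6, 0.48 and 0.39 for Six3, 0.68 and 0.43 for Cryab, which lens fibers also express, and -0.55 and -0.34 for Mab21l1. Their part in the results was not tested. Of 9 lens fiber markers none was listed in the culture table and 1, Bfsp1, in the region table, and none of the 5 endothelial markers was listed in either table. Bfsp1, a filament protein of fibers, had 0, 12 and 0 reads in External and 11, 19, 19 and 40 in Internal, with overlapping groups and a fitted log2 fold change of 2.22 that was not called (limma adjusted p = 0.108) and whose part in the results was not tested. Macrophages, which use these genes heavily, had 15 markers fixed, of which 2 (Cd68 and Cx3cr1) were listed in the cultures and 3 (with Csf1r) in the regions, and Ptprc, Adgre1 and Itgam were in neither table. The summed level of the listed macrophage markers was 4.10 to 7.29 CPM in 2D, 5.20 to 7.04 in 3D, 7.75 to 26.8 in External and 14.6 to 20.9 in Internal, with overlap in both comparisons. The values are from whole samples, in which fewer cells of a type and less RNA per cell cannot be told apart.

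LXRs are nuclear receptors that bind oxysterols, the oxidised forms of cholesterol, and pair with retinoid X receptors on DNA. When cells hold much sterol, they raise the genes that carry it out of the cell and those that degrade the receptors for lipoprotein uptake. The opposite arm is run by SREBP-2, which raises sterol synthesis and uptake when sterol is scarce. The lens is known for membranes very rich in cholesterol, above all in its fiber cells.

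In the spheroid regions, Abca1, Apoe and Mylip were higher in Internal than in External, by 7.52-fold, 6.35-fold and 3.69-fold, and the other 4 members showed overlapping groups. In the cultures, Apoe was 40.95-fold higher in 3D than in 2D, while Abca1 differed little, with a log2 fold change of -0.15. Values were log2 CPM, the counts of a gene relative to a normalized library total. A gene was called where limma's adjusted p was under 0.01 and the absolute log2 fold change over 1. On this rule 1 of 7 members was called higher in 3D and none lower, where 2.92% and 1.51% of all 11677 genes were. In Internal 3 of 7 members were called higher and none lower, where 3.27% and 4.35% of all 11299 genes were. The median log2 fold change of the members was 0.79 in 3D and 0.40 in Internal, beside -0.03 and 0.04 over all genes. Since the members were chosen with these changes known, nothing is read from the counts against those shares.

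**Figure D1:**
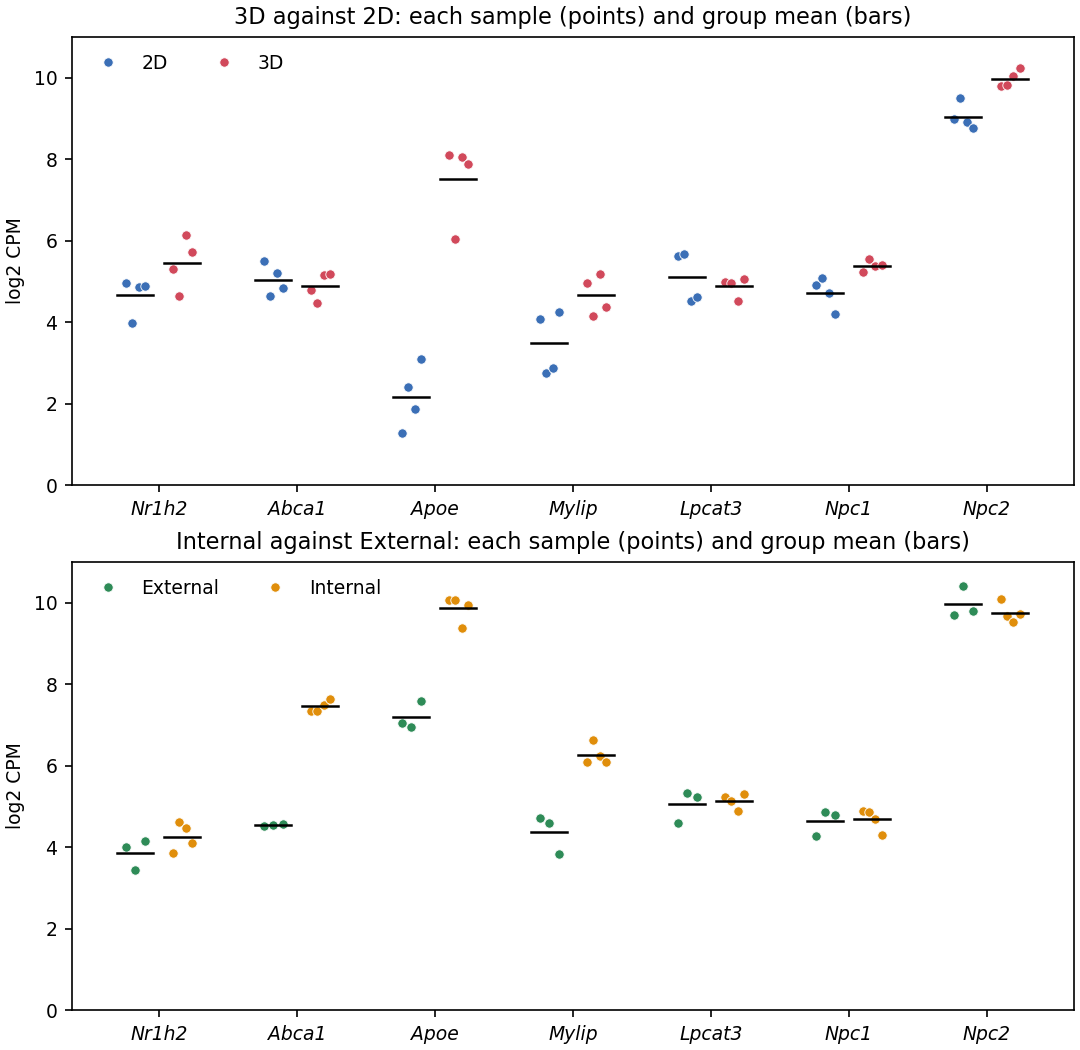
Level of each listed member in log2 CPM (vertical axis) in every sample (points) with the group mean (black bars), cultures above and regions below, the tables being normalized separately. Apoe in the cultures and Abca1, Apoe and Mylip in the regions stand clear of the reference group, with Apoe between 6.04 and 8.10 in 3D and between 1.29 and 3.10 in 2D.

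Among the receptors, only Nr1h2 was listed, on GRCm38 at chr7:44549616-44553951. It encodes LXRβ, the form found in most tissues, whereas Nr1h3 encodes LXRα. In 2D its level was 4.95, 3.97, 4.87 and 4.88 log2 CPM in samples 1 to 4, and in 3D it was 5.30, 4.64, 6.14 and 5.73. The groups overlapped through the 3D sample 2, which lay below all 2D samples but sample 2, and the log2 fold change was 0.79 (SE 0.32). In the regions Nr1h2 lay at 4.0, 3.43 and 4.14 in External and at 3.85, 4.61, 4.46 and 4.11 in Internal, with overlap and a log2 fold change of 0.40 (SE 0.33). The receptor was thus not called in either comparison.

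Its partners and cofactors were measured in 7 of 8 cases, Rxrg not being listed. None was called in 3D by limma or by voom, its fit on the recovered reads, where 1 had an unadjusted p under 0.05 and the median log2 fold change was 0.01. In Internal 1 of 7 was called higher and none lower, where 3.27% and 4.35% of all genes were. This was Ncoa2, a coactivator of nuclear receptors, with a log2 fold change of 1.10 (limma adjusted p = 0.00209). The call was lost without External sample 1 (adjusted p = 0.0129), Internal sample 1 (0.0127) or Internal sample 4 (0.0114). Rxra, a partner of LXR, stayed under the fold threshold in Internal, at 0.75 (adjusted p = 0.00473).

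Abca1, at chr4:53030787-53159895, encodes the transporter that moves cholesterol and phospholipid from the cell to apolipoproteins. In External it was measured at 4.53, 4.55 and 4.56 log2 CPM, from 138, 106 and 87 reads. In Internal it reached 7.34, 7.35, 7.49 and 7.64, from 1080, 1407, 783 and 2407 reads. Both groups were tight and lay far apart, with a log2 fold change of 2.91 (SE 0.18). Among all genes of the table, its mean level moved from percentile 46.8 in External to percentile 92.1 in Internal. In the cultures the same gene lay at 5.50, 4.63, 5.21 and 4.84 in 2D and at 4.78, 4.46, 5.16 and 5.17 in 3D, so that the groups overlapped, with a log2 fold change of -0.15 (SE 0.23).

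The upstream sequence of Abca1 is shown because it holds a pair of LXR half-sites and Abca1 was the member with the largest change between regions. The ideal LXR element is a direct repeat of AGGTCA with a spacer of 4 bases, written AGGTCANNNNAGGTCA, and it was searched on both strands of RefSeq promoter windows (GRCm38.p6, 250 bases before to 50 after the start) with at most 3 mismatches. By this loose rule 24.5% of 27025 genes held a match, and of the 6 listed members with a window there (Npc1 had none) 1 did, which was Abca1. Its match reads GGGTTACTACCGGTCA on the strand opposite to the gene, 67 to 52 bases before the start. The exact form GGGTTANNNNCGGTCA, chosen after the Abca1 match was seen, stood in the windows of 3 of the 27025 genes (0.0111%), and these were Abca1, Srebf1 (at an inner start) and Fasn, all of which are known LXR targets. The windows below run 5′ to 3′ on the minus strand, on which the genes lie, with the half-sites in capitals, and a match is a description of letters and not evidence of binding.
Abca1, chr4:53159905-53160004: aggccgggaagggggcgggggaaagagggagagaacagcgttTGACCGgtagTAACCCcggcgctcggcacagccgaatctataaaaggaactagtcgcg
Srebf1, chr11:60210596-60210695: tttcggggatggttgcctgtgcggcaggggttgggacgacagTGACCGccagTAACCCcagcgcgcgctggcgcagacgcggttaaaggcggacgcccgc
Fasn, chr11:120824698-120824797: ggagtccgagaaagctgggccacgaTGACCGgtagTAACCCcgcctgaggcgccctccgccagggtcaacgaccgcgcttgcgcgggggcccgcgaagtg
The genes with these half-sites did not share a direction between regions: Abca1 was higher in Internal and Fasn lower, with log2 fold changes of 2.91 and -1.46. Srebf1 had a log2 fold change of 2.10, but its groups overlapped and its call was lost with voom. Reads from 3′ ends do not tell which start of Srebf1 was used.

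Apoe, at chr7:19696109-19699188, encodes the secreted apolipoprotein E, which accepts cholesterol from ABCA1 and is a ligand of lipoprotein receptors. In 2D it lay at 1.29, 2.40, 1.86 and 3.10 log2 CPM, from 21, 37, 29 and 80 reads. In 3D it lay at 8.10, 6.04, 8.06 and 7.88, from 2141, 530, 2048 and 1905 reads, sample 2 being the lowest. No sample of one group came near the other, and the log2 fold change was 5.36 (SE 0.49). Its mean level moved from percentile 17.5 of all genes in 2D to percentile 92.2 in 3D. Of 8 fibroblast markers, 6 were listed in the cultures and 3 of them were called higher in 3D as well (Dcn, Thy1 and Col3a1, with log2 fold changes of 5.86, 2.71 and 2.49). Of the other 3, Col1a2 went the other way without overlap, with 11, 7, 21 and 26 reads in 2D and 3, 2, 4 and 6 in 3D, and was not called, at -1.47. Thy1 was near 0 in 2D, with 3, 2, 1 and 0 reads, against 21, 41, 8 and 16 in 3D. The summed fibroblast level was 70.1 to 226.8 CPM in 2D and 451.1 to 701.8 in 3D, and its part in the Apoe change was not tested.

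Between regions Apoe lay at 7.04, 6.95 and 7.59 log2 CPM in External, from 800, 567 and 718 reads. It lay at 10.07, 10.07, 9.38 and 9.93 in Internal, from 7155, 9279, 2917 and 11787 reads. The groups were apart, with a log2 fold change of 2.67 (SE 0.17), and Internal placed Apoe at percentile 99.2 of all genes against 89.0 in External. Of the fibroblast markers 5 were listed here, of which Col3a1 was called higher in Internal and Col1a1 lower, with log2 fold changes of 1.59 and -1.56. Their summed level overlapped, at 221.3 to 588.7 CPM in External and 402.3 to 493.7 in Internal, and their part in the Apoe change was not tested.

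Mylip, at chr13:45389742-45412022, encodes IDOL, the ubiquitin ligase that LXR induces to degrade receptors for lipoprotein uptake. In External it was measured at 4.71, 4.59 and 3.83 log2 CPM, from 157, 109 and 52 reads. In Internal it was measured at 6.08, 6.63, 6.24 and 6.08, from 449, 855, 328 and 816 reads. The groups were apart by more than the spread within either, with a log2 fold change of 1.88 (SE 0.24). In the cultures Mylip lay at 4.08, 2.76, 2.88 and 4.25 in 2D and at 4.95, 4.16, 5.17 and 4.38 in 3D. The 3D sample 2 lay below the highest 2D sample, so the groups overlapped, and the log2 fold change of 1.17 (SE 0.37) was not called.

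Lpcat3, at chr6:124663027-124704418, encodes a lysophospholipid acyltransferase that puts polyunsaturated chains into membrane phospholipids and is another known LXR target. Its level was 5.62, 5.67, 4.52 and 4.61 log2 CPM in 2D and 4.99, 4.95, 4.51 and 5.06 in 3D, with 2D falling into a high pair and a low pair. It was 4.60, 5.33 and 5.23 in External and 5.23, 5.13, 4.89 and 5.30 in Internal. The log2 fold changes were -0.23 (SE 0.28) and 0.09 (SE 0.25), and both pairs of groups overlapped. Of the other acyltransferases in the fixed list, 6 measured in the cultures and 5 in the regions, none was called by limma or voom, and those with an unadjusted p under 0.05 numbered 0 in 3D and 2 in Internal, both lower.

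Npc1 and Npc2 hand cholesterol from the lysosome to the rest of the cell, NPC2 as the soluble carrier and NPC1 as the membrane protein that takes it over. Npc2, at chr12:84754562-84773152, lay at 8.98, 9.49, 8.92 and 8.75 log2 CPM in 2D and at 9.80, 9.82, 10.04 and 10.23 in 3D. All 3D samples were above all 2D samples, with a log2 fold change of 0.94 (SE 0.17), just under the fold threshold of 1. It passed that threshold, at 1.09, without the 2D sample 2. Npc1 lay at 4.92, 5.07, 4.72 and 4.19 in 2D and at 5.22, 5.56, 5.37 and 5.39 in 3D. These groups also did not overlap, with a log2 fold change of 0.66 (SE 0.20).

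Thus 3 of 7 members, Apoe, Npc1 and Npc2, did not overlap between 2D and 3D, all of them higher in 3D, as 12.0% of all genes were. Between regions neither lysosomal protein stood apart. Npc2 lay at 9.70, 10.40 and 9.80 in External and 10.08, 9.67, 9.51 and 9.73 in Internal, with a log2 fold change of -0.22 (SE 0.16) that turned to 0.11 under quantile normalization. Npc1 lay at 4.27, 4.87 and 4.79 in External and 4.89, 4.87, 4.70 and 4.30 in Internal, with a log2 fold change of 0.05 (SE 0.27) that turned to -0.01 under quantile normalization and -0.02 under median centring. The members that did not overlap between regions were Abca1, Apoe and Mylip, again 3 of 7 and all higher in Internal, as 13.5% of all genes were.

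**Figure D2:**
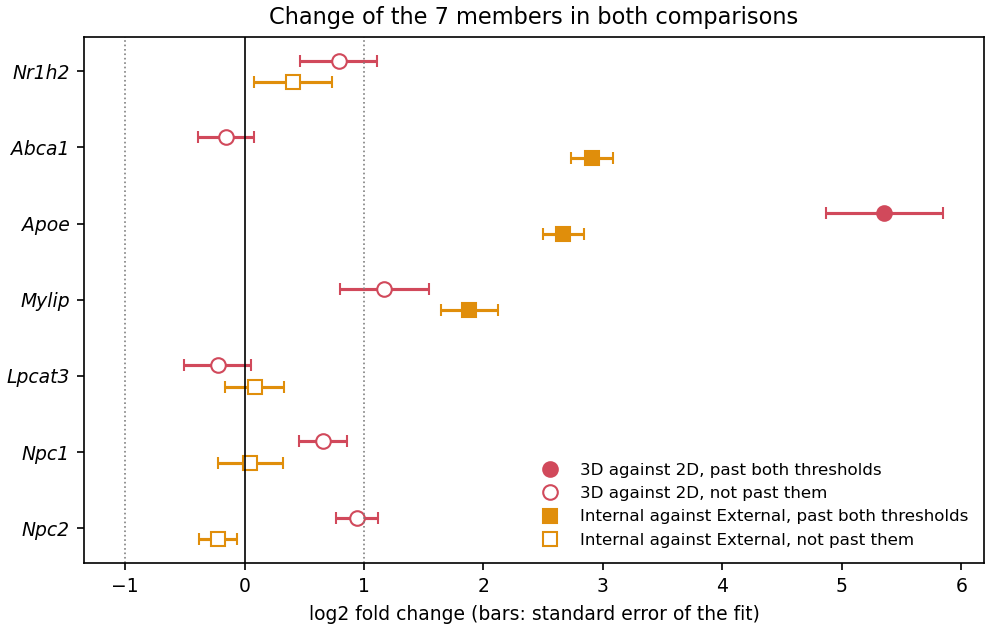
Log2 fold change (horizontal axis) of the 7 listed members in 3D against 2D (circles) and Internal against External (squares), with the standard error of the limma fit as bars, filled where both thresholds were passed and dotted lines at a log2 fold change of -1 and 1. Apoe was past both thresholds in both comparisons (5.36 and 2.67), Abca1 and Mylip between regions only (2.91 and 1.88), and Nr1h2, Lpcat3, Npc1 and Npc2 in neither.

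The libraries came from transcript 3′ ends, so a level in CPM is not divided by length when genes are set side by side. Npc2 led in 2D (mean 9.03 log2 CPM), with Apoe the last of the 7 (2.16) although its range overlapped that of Mylip (3.49). In 3D Npc2 (9.97) led and was apart from Apoe (7.52), whose sample 2 reached into the range of Nr1h2 (5.45), which in turn overlapped Npc1 (5.38), while Abca1 (4.89), Lpcat3 (4.88) and Mylip (4.66) lay below Npc1 and overlapped one another in turn. In External Npc2 (9.97) and Apoe (7.19) led, and the other 5, from Lpcat3 (5.05) to Nr1h2 (3.86), overlapped their neighbours. In Internal Apoe (9.86) and Npc2 (9.75) overlapped at the top, Abca1 (7.45) and Mylip (6.26) followed, each clear of the next, and Lpcat3, Npc1 and Nr1h2 overlapped one another in turn.

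The genes most like Apoe and Abca1 in pattern were those with the smallest root mean square difference of log2 values, centred per gene, searched where the mean level reached 2 log2 CPM. For Apoe in the 8 culture samples they were Pde1b (0.70), Aldh3a1 (0.84) and Clu (1.12), where Apoe itself departed from its own mean by 2.79. For Apoe in the 7 region samples they were Pid1 (0.22), Cst3 (0.23) and Mmp11 (0.23), its own departure being 1.35. Abca1 in the regions was matched best by Mmp11 (0.22), Fbxo32 (0.28) and Rspo3 (0.29), its own departure being 1.44. In the cultures Abca1 departed from its mean by only 0.32, and Arsb (0.11), Acadl (0.12) and Eps15 (0.12) came closest.

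Other LXR targets were measured in 9 of 16 cases. In Internal 3 were called higher, Apoc1, Srebf1 and Pltp, and 1 was called lower, Fasn, where 3.27% and 4.35% of all genes were, with a list median of 0.08. With voom 1 was called higher, Pltp, and the calls of Apoc1 and Srebf1 were lost (adjusted p = 0.0799 and 0.0751). Pltp, a phospholipid transfer protein of lipoproteins, lay at 3.98, 3.64 and 4.37 log2 CPM in External and 5.39, 5.96, 6.12 and 5.73 in Internal. Its groups were apart, with a log2 fold change of 1.80 (limma adjusted p = 1.58e-05). Apoc1, an apolipoprotein gene beside Apoe on chromosome 7, had 11, 0 and 0 reads in External and 43, 59, 15 and 91 in Internal, with a fitted log2 fold change of 3.40 (adjusted p = 0.00437) that rests on External samples at or near 0. Its call was lost without External sample 2 or 3 (2.94 each) or Internal sample 1 (3.36), 2 (3.33) or 4 (3.28). In the cultures Apoc1 had no read in any 2D sample and 12, 4, 13 and 3 reads in 3D, at least 2.95-fold higher against a floor of 3 reads per library, and was not called (limma adjusted p = 0.0271), though voom called it.

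Srebf1, which encodes SREBP-1, the regulator of fatty acid synthesis that LXR induces, lay at 3.87, 2.58 and 0.71 log2 CPM in External and 3.72, 5.11, 5.05 and 4.07 in Internal. The groups overlapped through External sample 1, and the log2 fold change was 2.10 (limma adjusted p = 0.00606). Without External sample 3 it was 1.26 and no longer called (adjusted p = 0.0574), and the call was also lost without External sample 2 (2.20) or Internal sample 2 (1.89) or 3 (1.91). Fasn, the fatty acid synthase and a target of both LXR and SREBP-1, moved the other way. It lay at 8.59, 8.75 and 8.69 in External and 7.28, 6.83, 7.42 and 7.33 in Internal, a log2 fold change of -1.46 (adjusted p = 3.08e-07). In the cultures Fasn was the 1 gene of this list that was called, lower in 3D at -1.27 on the log2 scale (adjusted p = 0.00074). Its level there was 8.56, 9.02, 8.55 and 8.47 in 2D and 7.44, 7.43, 7.16 and 7.50 in 3D.

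Among the receptors for the uptake of lipoproteins, Lrp8, a receptor for apolipoprotein E, lay at 5.43, 4.75 and 4.98 log2 CPM in External and 3.12, 3.57, 3.92 and 3.34 in Internal. Its groups did not overlap and it was called lower, at -1.56 on the log2 scale (limma adjusted p = 0.000833), and at -1.38 was no longer called without External sample 1. Lrp1, a broad receptor that also binds apolipoprotein E, stayed under the fold threshold at 0.75 (adjusted p = 0.00104). In 3D no receptor was called by limma or voom, and Lrp8 stayed under the fold threshold at -0.86 (adjusted p = 0.00275).

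Between regions, sterol synthesis was the list with the most calls and, at 25 genes, also the longest list. In Internal 14 of its 23 measured genes were called lower and none higher, where 4.35% of all genes were called lower, and its median log2 fold change was -1.57. The count was 9 without the variance trend, and 11 to 15 without single samples. Values of 18 genes did not overlap between regions, all lower in Internal, as 15.4% of all genes were. Among those with large changes were Cyp51, which encodes the lanosterol demethylase (-3.09), Mvd, the mevalonate pyrophosphate decarboxylase (-2.76), and Insig1, which holds SREBP in the endoplasmic reticulum (-2.55). Insig1 was no longer called without External sample 1 (-2.28). Cyp51 lay at 6.63, 6.55 and 6.49 log2 CPM in External and 3.95, 4.01, 3.71 and 2.20 in Internal. In 3D 1 of 24 genes of the list was called lower and none higher, where 1.51% and 2.92% of all genes were. It was Stard4, a sterol carrier named after its value was seen, at -1.18 on the log2 scale (limma adjusted p = 0.00287). That call was lost without 3D sample 1, 3 or 4. Values of 6 genes did not overlap between 2D and 3D, all lower in 3D, as 12.0% of all genes were. The list median was -0.45, with 20 genes negative and 4 positive.

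**Figure D3:**
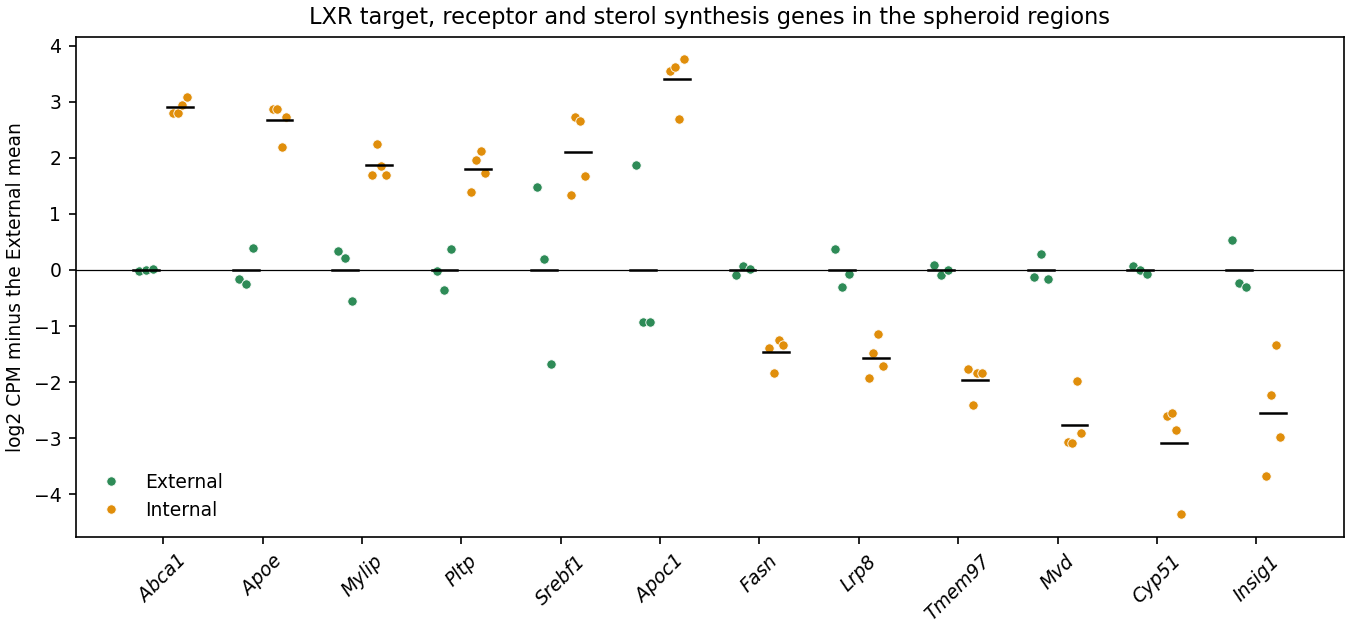
Level in every External (green) and Internal (orange) sample, in log2 CPM minus the mean of the External samples (vertical axis), with group means as bars. Abca1, Apoe, Mylip and Pltp lie above the External samples, Srebf1 overlaps them and Apoc1 rests on External samples at or near 0 reads, while Fasn, Lrp8, Tmem97, Mvd, Cyp51 and Insig1 lie below.

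Genes of lysosomal and contact site sterol handling were measured in 11 of 12 cases, and the median log2 fold change was 0.57 in 3D and 0.61 in Internal. Scarb2, the lysosomal membrane protein LIMP-2, was called higher in both, with log2 fold changes of 1.61 (limma adjusted p = 0.000727) and 1.36 (adjusted p = 2.31e-06). Lamp2, another lysosomal membrane protein, was called in 3D at 1.11 (adjusted p = 0.00287), a call lost without 3D sample 1 (1.11), 3 (1.03) or 4 (1.03). In Internal its log2 fold change of 0.92 was under the threshold, which it passed without External sample 1 (1.06). Tmem97, the sigma-2 receptor and a binder of NPC1, was called lower in both, at -1.16 (adjusted p = 0.00132) and -1.97 (adjusted p = 1.96e-06). Lipa, the lysosomal acid lipase that frees cholesterol from its esters, had log2 fold changes of 0.72 in 3D and 0.77 in Internal and was not called.

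No call was made by limma or voom, in either comparison, among genes that form or clear oxysterols (5 of 8 measured in the cultures, 4 in the regions), the other sterol efflux genes (4 and 3 of 6) or the genes of sterol esters (5 and 4 of 5). Those with an unadjusted p under 0.05 numbered 2, 1 and 4 in 3D, in that order, and 0, 2 and 3 in Internal. In 3D all were higher except 2 sterol ester genes, and in Internal 1 efflux gene and 1 sterol ester gene were lower. The share of all genes at this level is not given, so nothing is read from such counts in any list. Cyp7b1, which clears oxysterols, had log2 fold changes of 1.02 in 3D (limma adjusted p = 0.0783) and -0.43 in Internal (adjusted p = 0.675). Nceh1, a cholesteryl ester hydrolase, stayed under the fold threshold in Internal at 0.91 (adjusted p = 2.15e-05). Scarb1, the HDL receptor, had log2 fold changes of -0.17 and -0.28, and Soat1, which esterifies cholesterol, of -0.34 and -0.28. Abca7, a relative of Abca1, had log2 fold changes of 0.82 in 3D (adjusted p = 0.0219) and 0.64 in Internal (adjusted p = 0.0996).

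**Figure D4:**
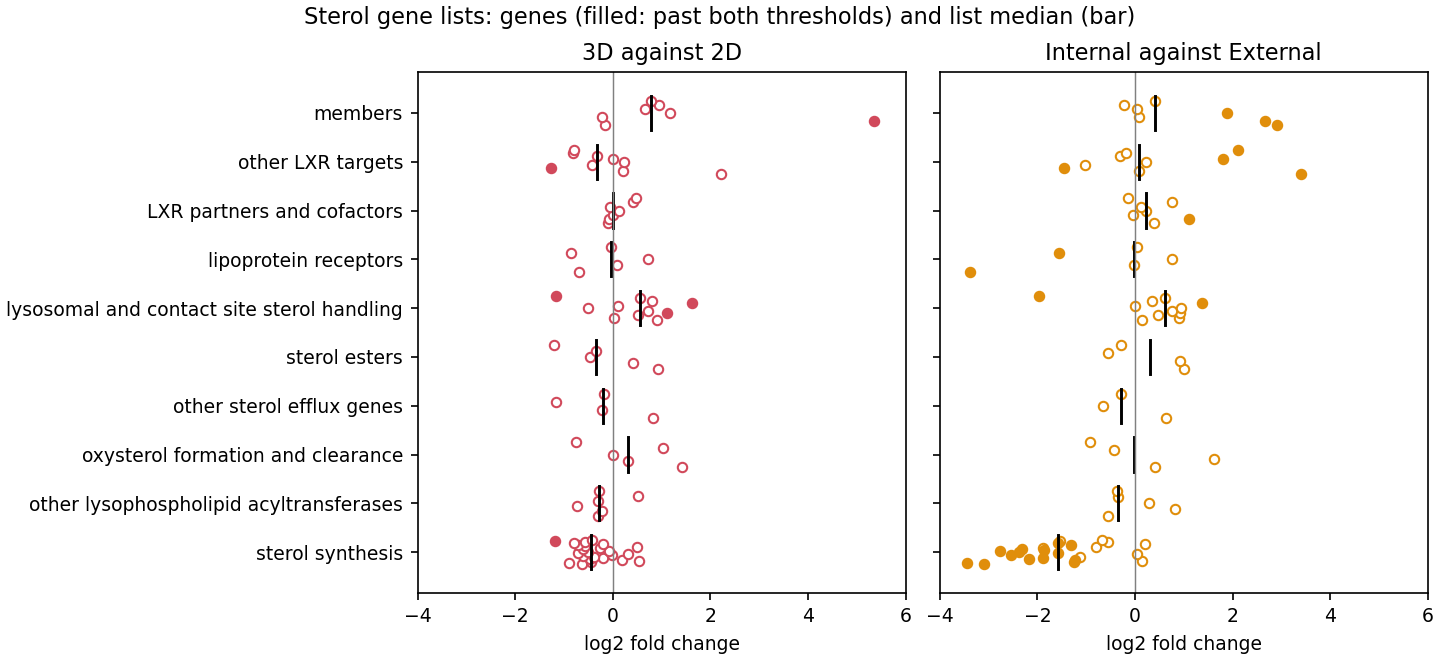
Log2 fold change (horizontal axis) of each measured gene of the members and of 9 further sterol lists, in 3D against 2D (left) and Internal against External (right), filled where both thresholds were passed, with the list median as a bar. Sterol synthesis genes lie at a median of -1.57 in Internal and -0.45 in 3D, and the members at 0.40 and 0.79.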

How the data were processed

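RNA of 15 samples was measured by 3′ end sequencing with QuantSeq. The authors trimmed the reads, kept sense reads, mapped them to GRCm38.p6 with STAR 2.7.8a, assigned unique reads to genes with featureCounts 1.6.0 (versions from the submitters' processing notes) and removed low genes. The annotation release is not given in the sources used here. The authors deposited log2 CPM per sample in 2 tables, together with fold changes and p-values of their own comparisons, which were not used.

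The steps between the deposited log2 values gave back whole reads for 100.0% of them (tolerance 0.05 reads), and totals and read counts come from them. Reads that are PCR copies cannot be told apart, so the floor of 3 reads covers counting error only.

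Each table was fitted with limma 3.58.1 in R 4.3.3 (linear model, empirical Bayes with variance trend, two-sided, Benjamini-Hochberg over all genes of the table) on the deposited values. A positive fold change means higher in 3D or in Internal, and fold changes understate those of low genes because the values carry a prior count. Positions come from GENCODE vM21, matched by gene identifier, and promoter windows from RefSeq. Npc1 is given without position.

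The members and lists were chosen with earlier results of these data known. Named were all members, up to 4 called genes per list with the largest change, genes of lists without a call with their role, and the 3 genes most like Apoe and Abca1 in each table. Rxra, Lrp1, Lipa and Stard4 fell outside this rule and were named in addition. Some genes that this rule names are not reported here. Alternatives covered the variance model, thresholds, a level filter, scaling, the prior count, limma's voom on the recovered reads, a replicate block and leaving out each sample.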

Additional observations from a re-analysis of the deposited data

Results flagged for a closer look

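In groups of 4 samples, a single sample was set aside for a closer look where its gap to the nearest other sample, divided by the range of the group, was above Dixon's critical value. This was tested in 63 groups and met in 6, where chance alone gives about 1 in 20. Apoe lay at 6.04 log2 CPM in 3D sample 2, with the others between 7.88 and 8.10. Nr1h2 lay at 3.97 in 2D sample 2, with the others between 4.87 and 4.95. Srebf1 lay at 1.23 in 3D sample 2, from 17 reads, with the others between 3.24 and 3.33. Fasn lay at 9.02 in 2D sample 2, with the others between 8.47 and 8.56. Tmem97 lay at 3.82 in Internal sample 2, with the others between 4.39 and 4.47. Cyp51 lay at 2.20 in Internal sample 4, with the others between 3.71 and 4.01. Of the 6 values, 4 were in a culture sample numbered 2, and Apoe lay past both thresholds in 3D with and without the culture samples numbered 2.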

How the results depend on the processing

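Apoe in 3D and Abca1, Apoe and Mylip in Internal lay past both thresholds under every alternative run and without any single sample, a description only, since the members were chosen with these changes known. Members called higher in 3D were 1, and 2 with Npc2 when the fold threshold was dropped or, chosen after seeing the data, both culture samples numbered 2 were left out (1 to 2 without single samples, 2 without 2D sample 2). Over all genes, 341 were called higher in 3D and 644 at an adjusted p of 0.05 (112 to 483 without single samples, and 217, 191, 112 and 115 without 2D sample 4 and 3D samples 1, 3 and 4). Those lower in 3D were 176, and 334 at an adjusted p of 0.05, 315 without the fold threshold and 276 without both samples numbered 2 (49 to 287 without single samples, and 287, 93 and 79 without 2D samples 2, 3 and 4 and 80, 49 and 62 without 3D samples 1, 3 and 4). In Internal 370 were called higher and 491 lower, against 117 and 207 without the variance trend and 588 and 890 without the fold threshold. The causes were not tested beyond the construction of each setting.

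Directions turned in changes that were not called. In 3D these were Pltp (-0.04 under quantile normalization, -0.38 to 0.26 without single samples), Mvd (0.21 without both samples numbered 2, -0.28 to 0.19) and Insig1 (0.04 under quantile normalization, 0.01 under median centring, 0.00 with voom, 0.30 without both samples numbered 2, -0.30 to 0.24). Without single samples they were also Ncoa2 (-0.21 to 0.11) and Srebf1 (-1.58 to 0.14) in 3D. In Internal they were Npc1 (-0.01 under quantile normalization, -0.02 under median centring, -0.14 to 0.18), Npc2 (0.11 under quantile normalization) and Lpcat3 (-0.14 to 0.23).

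Among list genes in Internal, the calls of Srebf1, Apoc1, Ncoa2, Lrp8, Insig1 and Scarb2 were lost under at least 1 alternative, as were those of Lamp2 and Stard4 in 3D. Further calls of sterol synthesis genes in Internal were lost without the variance trend. Correlations of deviations between samples with the same replicate number were 0.23, 0.50, 0.07 and 0.01 in the cultures and -0.04, -0.07 and -0.06 in the regions. Not every pair was over 0.1, so the numbers were not taken as pairing the samples, although the culture samples numbered 2 deviated together. This rule cannot exclude pairing, and the sources do not say whether regions with the same number came from the same pool. With the replicate number as a block, 389 and 213 genes were called higher and lower in 3D, and 256 and 399 in Internal, where Internal sample 4 is alone in its block and the calls of Apoc1, Srebf1, Ncoa2 and Insig1 were lost (adjusted p = 0.0186, 0.0217, 0.0256 and 0.0128).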
